A study of Paracentrotus lividus with 54 samples.

Results

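The 300 gene models of the sea urchin Paracentrotus lividus that stand farthest from their neighbours were described by their surroundings, their open chromatin and their RNA. They were found by position alone. For each of 33922 models the gaps to the nearest model on the left and on the right of the same scaffold were measured. The 1967 models lacking a neighbour on a side and the 300 longest spans were set aside, which left 31660 models, and the 300 with the largest smaller gap were taken as members. The other 31360 models serve as the comparison. No RNA or chromatin value entered this choice. Isolation here is isolation from other models of the deposited, filtered annotation, so a gene missing from that annotation could lie in a gap.

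The study followed development from the egg to the pluteus, the swimming larva with arms, and added adult tissues, with no genetic or chemical treatment named in the labels. RNA-seq gave 22 libraries, 1 each for 17 stages between 0 and 48 hours and for adult bodywall, gut, ovaries, tubefeet and the jaw apparatus, called Aristotle's lantern. ATAC-seq, which finds open chromatin by where a transposase can insert, covered 28 samples, read as 1 pooled peak list per stage. These samples were 2 at the 16-cell stage, 6 at early blastula, 7 at late blastula, 7 at gastrula, 4 at prism and 2 at pluteus. The early and late blastula lists were identical, so 1 blastula list is used and cannot be assigned to either stage. Whole embryos or whole tissues were used, so fewer cells of a type and less RNA per cell cannot be told apart. RNA library totals ran from 14657193 to 36305776 counts, and the prism library stood apart with the lowest scaling factor of the developmental libraries, 0.483 by TMM (trimmed mean of M-values). The 4 CUT&Tag samples were not analysed here.

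As background, RNA of the early cleaving embryo is largely what the mother laid down in the egg, and the embryo's own transcription takes over as development proceeds. In animals the DNA between genes holds enhancers, short stretches that are opened in particular cells and raise transcription from a start that may lie far away. Genes that control development are often found in long intergenic regions with many such elements, and open chromatin peaks are used to map them. Lone models in long gaps can also be short open reading frames with little or no transcription. Models are named here by identifier only, since the sources used here pair none with a gene name or protein, and no sequence is shown for the same reason.

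The smaller gap of a member ran from 43.41 to 141.3 kb with a median of 55.85 kb, against a median of 2.236 kb in the other eligible models. At the threshold the values were continuous: the last members stood at 43.67 and 43.41 kb and the first models outside at 43.35 and 43.19 kb. Upstream gaps had a median of 65.74 kb and downstream gaps one of 67.98 kb, and the longest gap reached 396 kb. The larger gap was the upstream one in 139 members and the downstream one in 161. Members lay on 39 scaffolds, 277 of them on the 18 scaffolds with the most models, and no scaffold held more than 31. In 210 cases neither neighbour was a member, while 90 members sat next to another member, in runs of at most 4. The 550 distinct gaps beside members were 1.79% of all 30677 gaps between models and held 44.61 Mb, or 10.6% of all bases in gaps. Another 1585 gaps were at least as long as the smallest smaller gap of a member but lay beside no member.

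Members were smaller gene models than the rest. A single exon made up 95 of the 300 (31.7%), against 22.1% of the other eligible models, and 10 or more exons were found in 7.67% against 19.6%. The median member had 3 exons and 819 exonic bases, against 4 exons and 1137 bases. A span under 500 bases was found in 46 members (15.3%), against 10% of the others. The next 300 models by gap size, with smaller gaps of 32.66 to 43.35 kb, had 29.0% with 1 exon and a median of 772.5 exonic bases, so these features were not restricted to the members.

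The most isolated member, PL35560, lies on Scaffold_3430 from 17207860 to 17208137 on the minus strand, with 141.3 kb upstream and 159.8 kb downstream. It is a single exon of 278 bases. The second, PL41270, lies on Scaffold_794 from 200945 to 201568 on the plus strand, with gaps of 135.4 and 210.1 kb around 1 exon of 624 bases. The third, PL11363, lies on Scaffold_174 from 23776540 to 23776908 on the plus strand, with gaps of 148.8 and 132.4 kb around 1 exon of 369 bases. All of the first 3 are thus short models of 1 exon.

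The long gaps beside members were rich in open chromatin peaks at every stage, at a density slightly below that of other gaps. A summit, the highest point of a peak, was counted in the gap that held it. The gaps beside members held 1311 summits in the 16-cell list, 6316 in the blastula list, 7000 in the gastrula list, 5063 in the prism list and 1832 in the pluteus list. Per Mb the 16-cell list gave 29.4 (95% Poisson interval 27.8 to 31.0), the blastula list 142 (138 to 145), the gastrula list 157 (153 to 161), the prism list 113 (110 to 117) and the pluteus list 41.1 (39.2 to 43.0). Other gaps of at least the same length held 32.7, 147, 164, 118 and 43.6 summits per Mb in the same order, and all other gaps together 33.1, 154, 168, 123 and 48.5. The ratio of member gaps to all other gaps was 0.887, 0.921, 0.936, 0.924 and 0.847 in that order. Each list is 1 pooled call without replicate lists, so the intervals cover counting error only and no test was made.

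The rise and fall of the density from the 16-cell to the pluteus list goes with the length of the lists, which held 30683, 142485, 154157, 112026 and 44711 peaks. With the same number of top-scoring peaks taken from each list, gaps beside members held 29.4, 29.5, 29.3, 28.7 and 27.3 summits per Mb in the same order. The stage differences in the full lists are therefore not read as differences in the openness of the gaps.

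**Figure D1:**
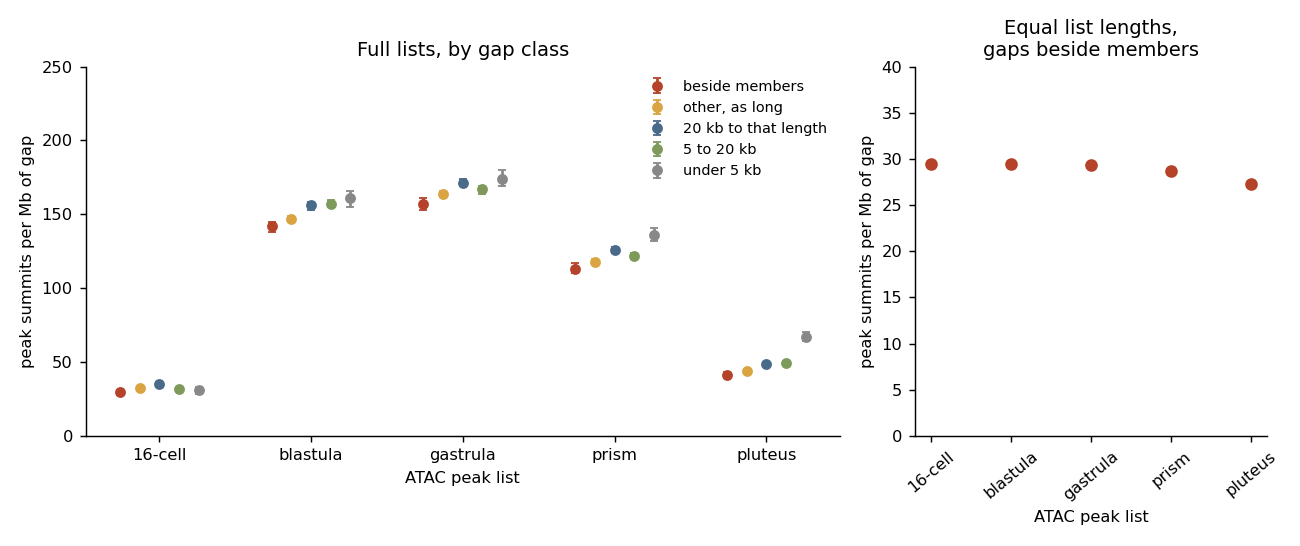
Left, peak summits per Mb of gap (vertical axis) in the 5 peak lists for 5 classes of gap, with 95% Poisson intervals; right, the same for gaps beside members with 30683 top-scoring peaks from each list. Gaps beside members are the lowest class in every list, for example 157 against 164 per Mb for other gaps as long in gastrula, and with equal list lengths the 5 values lie between 27.3 and 29.5.

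Single members differed widely in how much open chromatin lay around them. In the gastrula list a member had between 4 and 73 summits in its 2 gaps, with a median of 23.5 and quartiles of 16 and 33. Per Mb of gap 10% of members lay below 79.1 and 10% above 250. Every member had at least 1 summit in its gaps in the blastula, gastrula and prism lists, while 11 had none in the 16-cell list and 21 none in the pluteus list. Summits were spread over both sides: in gastrula there were 160 per Mb upstream and 155 downstream, and 153 members had the denser side upstream against 147 downstream.

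The member with the most gastrula summits was PL20226, a model of 3 exons and 273 exonic bases on the plus strand of Scaffold_3429, from 17399133 to 17402030. Its gaps of 180.6 kb upstream and 102.9 kb downstream held 50 and 23 summits. In the other lists its gaps together held 7 summits at 16-cell, 43 at blastula, 62 at prism and 21 at pluteus. The second, PL38570, a single exon of 231 bases on the minus strand of Scaffold_3426 from 46956677 to 46956907, had 33 summits upstream and 32 downstream in gastrula. Its totals over both gaps were 4 at 16-cell, 41 at blastula, 57 at prism and 43 at pluteus. Neither had a summit within 1 kb of its own start in any list. RNA was nearly absent from both: PL20226 was counted in 1 of the 22 libraries, at 0.0888 CPM (library counts scaled to a common total) in early mesenchyme blastula, and PL38570 in none. A count of 0 stands below a floor that ran from 0.165 to 0.381 CPM over the libraries. Among the first 3 members by gap, gastrula summits numbered 45 for PL35560, 48 for PL41270 and 52 for PL11363.

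Peaks in the gaps beside members differed from peaks in other gaps by a few percentage points in how often they had counterparts at other stages. Of the 7000 gastrula peaks beside members, 71.6% had a counterpart in the blastula list, overlapping by at least 50% of the shorter peak, 68.4% in prism, 23.9% in pluteus and 17.8% in 16-cell. In all other gaps these shares were 74.0%, 69.4%, 26.3% and 18.6%. No counterpart in any other list was found for 13.4% (exact binomial interval 12.6 to 14.2), against 12.5% in all other gaps. Blastula peaks beside members had no counterpart elsewhere in 21.5% (20.4 to 22.5), against 19.9% (19.6 to 20.2). Of the 1311 peaks in the 16-cell list, 799 (60.9%) had counterparts in all 4 other lists, against 59.4% in other gaps. Pluteus peaks beside members had counterparts in all 4 other lists in 45.0% (42.7 to 47.3), against 41.5% (40.8 to 42.2). The intervals of these last shares for blastula and pluteus do not overlap, but they cover counting error only. The median gastrula peak was 370 bases wide beside members and 363 elsewhere.

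Close to the gene, open chromatin at the annotated start was about as common in members as in other models from blastula to prism, and more common in the 16-cell list. A summit within 1 kb of the start was found in 121 members (40.3%) in the blastula list, against 41.5% of all models. In gastrula it was 136 members (45.3%) against 44.8%, in prism 116 (38.7%) against 38.8%, and in pluteus 67 (22.3%) against 24.9%. In the 16-cell list it was 52 members (17.3%, exact binomial interval 13.2 to 22.1) against 10%. Only this last share has an interval that leaves out the share of all models, and no test was made, since each list is a single pooled call. The next 300 models by gap had 11.7% in 16-cell and lower shares than the members in the other lists, which from blastula onwards gave 32.7%, 34.0%, 28.7% and 17.3%.

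The 16-cell share of members was the higher one in both exon classes, though with 1 exon its interval included the share of other models. Members of 1 exon had a 16-cell start peak in 23.2% (22 of 95, interval 15.1 to 32.9), against 15.6% of other models of 1 exon. With 2 or more exons the values were 14.6% (30 of 205, 10.1 to 20.2) and 8.16%. Among the 150 most isolated models the 16-cell share was 21.3%, and among the 600 most isolated 14.5%. These sets share models with the members. A start peak in all 5 lists was found in 41 members (13.7%), against 6.73% of the other eligible models, while a peak in exactly 4 lists was found in 10% against 18.5%. No list held a start peak for 153 members (51.0%), against 49.1%. The start peaks of members were wider than the median peak of their list, 556 against 495 bases in 16-cell and 698 against 434 in pluteus. Start peaks of other models had medians of 522 and 515 bases in those lists.

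By distance from the gene, 16-cell summits beside members were densest next to the start. The first 1 kb upstream of members held 22 16-cell summits, 73.3 per Mb (Poisson interval 46.0 to 111), against 39.7 in all other eligible models. Between 5 and 10 kb upstream the values were 26.7 and 34.3 per Mb, and between 20 and 40 kb 30.5 and 32.8. In gastrula the first 1 kb upstream held 250 per Mb (197 to 313), against 269 in the others, and 20 to 40 kb upstream 162 against 167. Between 1 and 5 kb upstream gastrula summits were sparser beside members, at 150 per Mb (129 to 174), against 187 (184 to 190) in the others and 199 (189 to 209) in models with as long an upstream gap. The first 1 kb downstream of members held 150 gastrula summits per Mb (109 to 201), against 125 in all others and 160 (141 to 180) in models with as long a downstream gap.

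RNA of members was scarce. Over all 22 libraries 37 members (12.3%) had no count at all, against 7.52% of the other eligible models, and 50 (16.7%) had none in the 17 developmental libraries, against 10.1%. Of these 37, 27 had 1 exon, as did 1575 of the 2357 other eligible models without a count. Among the next 300 models by gap 15.3% had no count at all and 19.0% none in development, so this was not restricted to the members. The median level of members, in TMM-scaled CPM per kb of exon, was 0 from egg to the 64-cell stage, 0.158 in late gastrula and 0.216 in pluteus, and again 0 in early mesenchyme blastula and prism. In the other models the median per-kb level was 0.172 in egg, 0.885 in late gastrula and 1.08 in pluteus. For the next 300 models by gap it was 0.0909 in late gastrula and 0.0769 in pluteus. Adult tubefeet had the highest median per-kb level of members, 0.419, against 1.19 in the other models. Among models of 2 or more exons the median per-kb level in pluteus was 0.373 in members and 2.28 in the others, so members were lower within that class as well.

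Counting models instead of levels gave the same order. At least 1 CPM was reached by 53 members (17.7%, exact binomial interval 13.5 to 22.5) in egg and 91 (30.3%, 25.2 to 35.9) in pluteus, against 40.7% and 53.3% of the other eligible models. The next 300 models by gap were close to the members, at 20.3% in egg and 31.0% in pluteus. Members have fewer exonic bases, and CPM does not correct for that. In prism 22.7% of members and 38.8% of the others reached 1 CPM, both below late gastrula with 29.7% and 52.0%. Only 20 members (6.67%) were at 1 CPM or more in all 17 developmental libraries, against 27.1% of the others. A value of 10 CPM in at least 1 developmental library was reached by 59 members (19.7%), against 39.8%, and 100 CPM by 18 members (6.00%), against 12.1%. Apart from egg, where 53 members already stood at 1 CPM, the stage at which most members first reached it was early mesenchyme blastula, with 16 (5.33%) against 1.99% of the others, followed by the 2-cell stage with 14 (4.67%) against 5.67%.

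**Figure D2:**
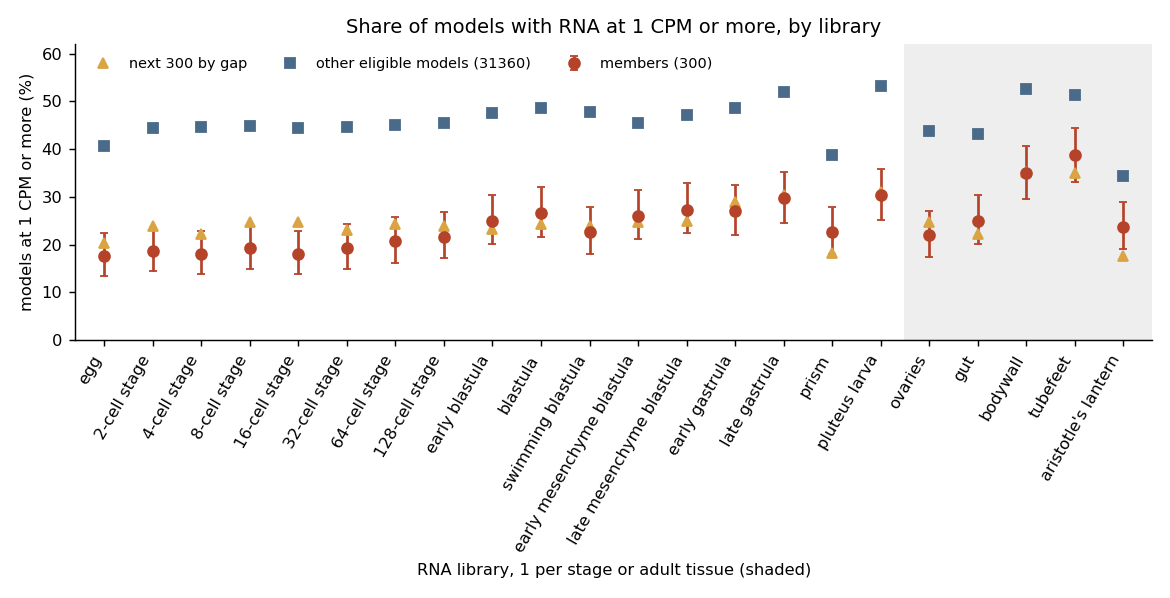
Share of models at 1 CPM or more (vertical axis, percent) in each of the 22 RNA libraries, for the 300 members with 95% exact binomial intervals, the next 300 models by gap size and the other 31360 eligible models. Members lie below the other models in every library, from 17.7% against 40.7% in egg to 38.7% against 51.4% in tubefeet.

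The counts of members were carried by few models early on. PL24291, a single exon of 5717 bases on the plus strand of Scaffold_674 from 22511487 to 22517203, gave 65.0% of all member counts in egg; it was singled out after its values were seen. Its level was 1641 CPM in egg, between 1249 and 1552 from the 2-cell to the 128-cell stage and 2330 at swimming blastula. It was 873.3 at early mesenchyme blastula, 1226 at late gastrula, 1284 at prism and 814.8 at pluteus. These are CPM of library totals, without the TMM factor, which was 0.483 for prism. In adults it was 211.6 CPM in tubefeet and 9.939 in gut, so every developmental library lay above every adult one. Its log2 change from the first to the last 4 stages was 0.21 (SE 0.397, adjusted p = 6.69e-01 by edgeR), and it had a start peak in all 5 lists. Without the prism library that change was -0.76 with an adjusted p of 1.36e-02 by edgeR, and with library size scaling alone it was -0.48, so its direction depended on the libraries and the scaling used.

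Over development, members that changed mostly went up. The trend was tested with edgeR's quasi-likelihood test on a smooth curve through the 17 stages, adjusted by Benjamini-Hochberg over all 22940 models tested, and direction was the fitted mean of the last 4 stages minus that of the first 4, with an adjusted p under 0.05 and a log2 change of at least 1. With 1 library per stage the scatter around the curve stands in for replicate error. Of the 300 members 169 passed the filter on low counts (56.3%, against 69.5% of the other eligible models). A trend was found in 104 of these, 61.5%, close to the 64.7% of all models tested. Of the 169, 76 rose (45.0%), against a background of 36.5%, and 19 fell (11.2%), against 19.6%. The higher rising share holds only among models tested. Over all 300 members 25.3% rose, against 25.2% of the other eligible models, and 6.33% fell, against 13.8%. The median log2 change was 1.95 over tested members and 0.63 over all tested models. Library size scaling alone shifted the median of all models by -0.30 and gave 1.46 and 0.33, and DESeq2 gave 2.03 and 0.80.

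Raw levels of the models tested, without the fit, leaned the same way. In 48 tested members (28.4%) every library of the last 4 stages lay above every library of the first 4, against 17.6% of all tested models, and in 15 (8.88%) all lay below, against 18.3%. Members that passed the filter only through their late libraries had to differ in this direction, so these shares describe the members tested and not all 300. Before the filter, 133 of the 300 members (44.3%) had no count in any of the first 4 libraries, against 29.5% of the other eligible models. Among the next 300 models by gap this share was 46.7%. Of the 76 rising members 24 had 0 counts in all of the first 4 libraries, so the fitted changes of these 24 are no bound. Among the other eligible models this held for 1680 of 7903 rising ones. The rising members had fitted log2 changes of 1.08 to 17.31 with a median of 6.79, and the falling ones of -4.62 to -1.10 with a median of -2.37.

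The exon classes were compared separately. Among members of 1 exon 19 of 33 tested rose and 1 fell, or 57.6% and 3.03%, against 45.6% and 12.4% of other models of 1 exon. With 2 or more exons 57 of 136 rose and 18 fell, or 41.9% and 13.2%, against 35.0% and 21.0%. Counted over all models and not those tested, 20.0% of members of 1 exon rose, against 17.5% of the others, and 27.8% of members with 2 or more exons, against 27.4%. The falling shares over all models were 1.05% against 4.74% with 1 exon and 8.78% against 16.4% with more. Of the next 300 models by gap 148 were tested, 63 rose (42.6%) and 26 fell (17.6%). Models with a smaller gap of 1 base to 1 kb had 33.2% rising and 19.8% falling, but models overlapping a neighbour had 39.7% and 16.3%, so the shares did not simply follow gap size.

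**Figure D3:**
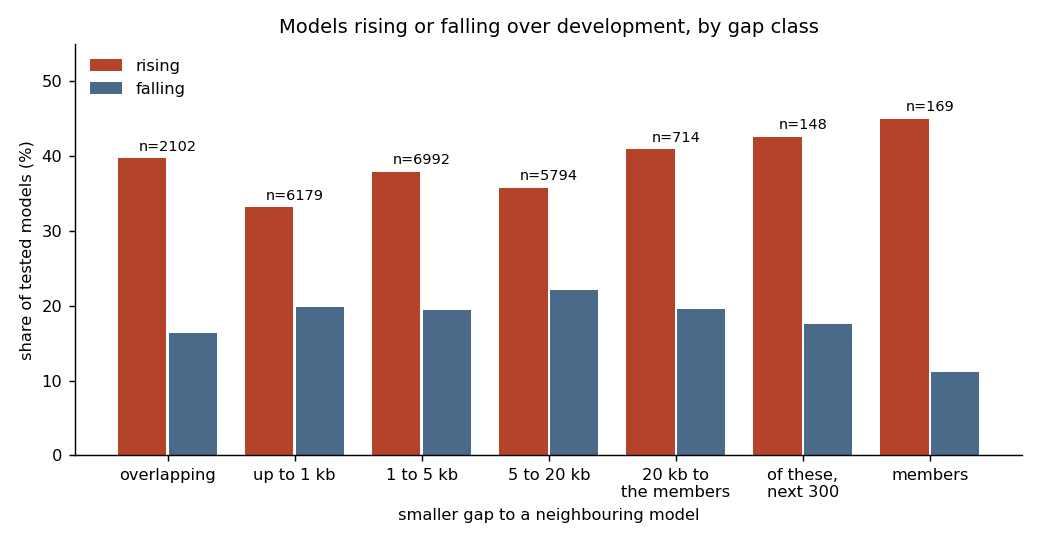
Share of tested models (vertical axis, percent) that rose or fell over development, by the size of the smaller gap, with the number of models tested above each pair of bars; the next 300 are part of the class from 20 kb up. Members have 45.0% rising and 11.2% falling, against 33.2% and 19.8% for gaps up to 1 kb and 39.7% and 16.3% for overlapping models.

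Some libraries stood apart in a way that runs with the stages. Scaffold_2421, which holds no member, took 3.12% to 7.56% of counts in the developmental libraries other than early mesenchyme blastula, late mesenchyme blastula and pluteus, where it took 0.292%, 0.608% and 0.209%. Its part in the calls was not tested as such, but a fit without these 3 libraries gave 55 rising and 20 falling of 154 members tested, 35.7% and 13.0%, against 27.9% and 26.3% of all models. When pluteus alone was left out, 12 members fell in place of 19.

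Of the 76 rising members 57 had a gastrula start peak, as did 4605 of the 7903 rising models among the other eligible ones. Whatever their direction, 102 of the 169 tested members had one. Of 102 tested members with a gastrula start peak 57 rose (55.9%) and 12 fell (11.8%), against 38.7% and 20.0% of other models with such a peak. Of the 67 without one 19 rose (28.4%) and 7 fell (10.4%), against 33.4% and 19.8%. For the 16-cell list, of 40 tested members with a 16-cell start peak 29 rose (72.5%) and none fell, against 44.8% and 15.9% of 2421 other tested models with a 16-cell start peak. By DESeq2 30 of these 40 rose and none fell, and with counts divided by 2 the fit gave 24 rising and 1 falling of 35. Without the pluteus library 24 rose and 1 fell, and without the 3 libraries low in Scaffold_2421 24 rose and 2 fell of 38. Shares of other models with a 16-cell start peak under these alternative fits are not given here. The alternative counts thus describe the members alone and not their difference from other models. Of the 34 tested members with a start peak in all 5 lists 26 rose (76.5%) and none fell, against 46.0% and 16.7% of 1810 other tested models with a peak in all 5. Over all models, tested or not, 55.8% of members with a 16-cell start peak rose, against 35.3% of the others with one, and 41.9% of members with a gastrula start peak, against 32.2%. Without a gastrula start peak 11.6% of all such members rose, against 19.3%. Without a start peak in any list 19 of 63 rose (30.2%), against 32.5% of other models without one. No test of these differences was made, and members with a gastrula start peak also had more exonic bases (median 1047 against 708.5) and more RNA, with 34.6% at 10 CPM or more in a developmental library against 7.32% of those without.

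The density of peaks in the gaps was set beside RNA as well. Members were ranked by gastrula summits per Mb of their gaps and divided into 3 sets of 100, from 27.5 to 124, 124 to 181 and 181 to 396 per Mb. From the sparsest to the densest set 11, 19 and 29 members reached 10 CPM in a developmental library, and 50, 52 and 67 passed the filter. The rising share of those tested was 44.0%, 44.2% and 46.3%, and the falling share 10%, 15.4% and 8.96%. By raw levels, the share of those tested with every late library above every early one was 22.0%, 26.9% and 34.3%. At least 1 CPM in development was reached by 48, 46 and 54 members. The sets thus differed in some of these measures and hardly in others, and no test was made.

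**Figure D4:**
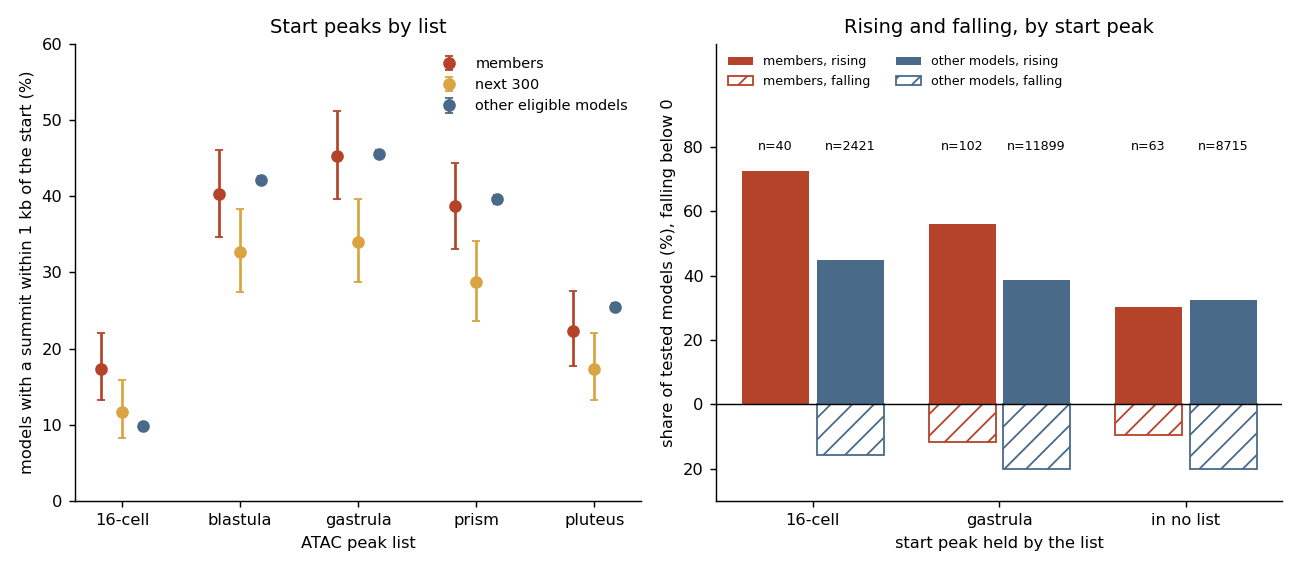
Left, share of models with a summit within 1 kb of the start (vertical axis, percent) in each peak list, with 95% exact binomial intervals; right, share of tested models rising (above 0) and falling (below 0) by start peak, with the number tested. Members stand above other models in the 16-cell list, 17.3% against 9.80%. Of 40 tested members with a 16-cell start peak 72.5% rose and none fell, against 44.8% and 15.9% of other tested models with one.

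The 2 rising members with the largest fitted change, among 35 that met the naming rule, are single exons with a start peak in all 5 lists. The rule itself asked for a rise, so they do not stand for the rest. Of the 76 rising members 19 had 1 exon and 26 had a start peak in all 5 lists. PL09288, a single exon of 1533 bases on the plus strand of Scaffold_174 from 61837654 to 61839186, has gaps of 56.3 and 62.19 kb and a start peak in all 5 lists. It had no count from egg to the 32-cell stage, 0.103 CPM at the 64-cell stage, 1.31 at the 128-cell stage, 1.37 in early blastula, 1.61 in blastula and 4.07 in swimming blastula. It then stood at 49.3 and 78.9 CPM at early and late mesenchyme blastula, 172 and 188 at early and late gastrula, 13.4 at prism and 129 at pluteus. All of the last 4 libraries lay above the first 4, and the pooled level was at least 454-fold higher, with 3 counts set as the floor in each library at 0. By edgeR the fitted log2 change was 17.31 (SE 1.12, adjusted p = 2.05e-08), which is no bound because of the zeros, and which ran from 14.82 without the 128-cell library to 20.96 without prism. Adults had at most 1.99 CPM, in tubefeet. In its gaps 3, 26, 42, 34 and 20 summits were found from the 16-cell to the pluteus list, and in pluteus 19 of the 20 lay upstream.

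PL36696, a single exon of 651 bases on the minus strand of Scaffold_3432 from 11750666 to 11751316, has gaps of 85.94 kb upstream and 104.1 kb downstream and a start peak in all 5 lists. It had no count from egg to the 128-cell stage and stayed at or below 0.364 CPM up to swimming blastula. It stood at 6.83 and 14.5 CPM at early and late mesenchyme blastula, 14.9 and 21.3 at early and late gastrula, 1.48 at prism and 12.7 at pluteus. The pooled last 4 libraries were at least 45.4-fold above the floor of the first 4, and the fitted log2 change was 11.35 (SE 1.24, adjusted p = 5.54e-06 by edgeR), or 10.56 without pluteus. Both of these members had less RNA in the prism library than in late gastrula or pluteus. Tubefeet had its highest adult level, 2.86 CPM.

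The 2 falling members with the largest fitted change, among 11 that met the rule, had several exons. PL00808 spans 32388476 to 32393920 of Scaffold_3425, minus strand, with 6 exons and gaps of 57.63 and 59.69 kb. It stood at 8.52 CPM in egg, between 9.84 and 14.7 from the 2-cell stage to early blastula, 7.35 in blastula and 1.66 in swimming blastula. Later values were 0.71 and 0.473 at early and late mesenchyme blastula, 1.11 and 1.91 at early and late gastrula, 0.105 at prism and 0.539 at pluteus. The first and last 4 libraries did not overlap, the first 4 had 13.9 times the pooled level of the last 4, and the log2 change was -3.84 (SE 0.539, adjusted p = 7.02e-06 by edgeR), or -3.21 without pluteus. It had start peaks in 3 of the 5 lists, with the nearest summit 948 bases from the start in gastrula.

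PL10740 lies on the minus strand of Scaffold_174 from 35516059 to 35528338, with 7 exons, 1605 exonic bases and gaps of 49.98 and 52.39 kb. Its level was 17.9 CPM in egg and between 12.0 and 18.0 up to blastula, then 5.65 at swimming blastula and 1.33 and 2.94 at early and late mesenchyme blastula. Early and late gastrula had 1.29 and 2.37, prism 0.737 and pluteus 0.741. The first 4 libraries lay 12.2-fold above the last 4 when pooled, without overlap, and the log2 change was -3.37 (SE 0.413, adjusted p = 1.40e-06 by edgeR). No list held a summit within 1 kb of its start. The nearest summit was 1419 bases away in gastrula and 4542 in 16-cell.

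**Figure D5:**
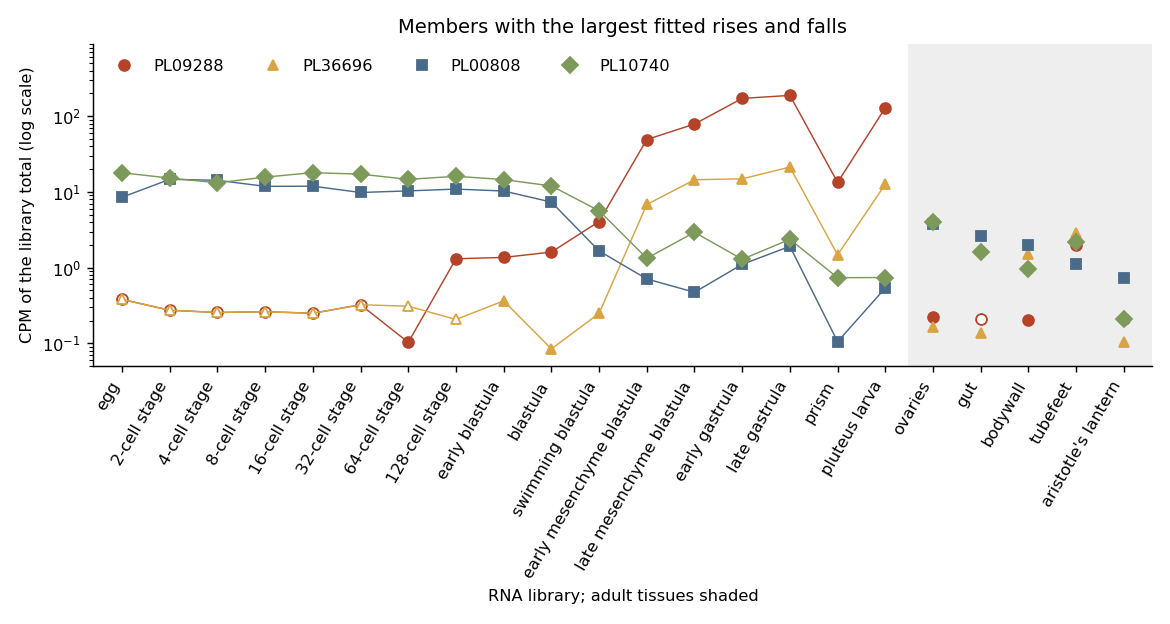
Level (vertical axis, CPM on a log scale) of PL09288, PL36696, PL00808 and PL10740 in the 22 RNA libraries, with the 17 developmental libraries joined by lines; open symbols are counts of 0 drawn at the floor of 3 counts. The first pair stands at 0 up to the 32-cell stage and reaches 188 and 21.3 CPM in late gastrula, while the second pair stands above 8 CPM in egg and below 1 in pluteus.

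The 3 most isolated members had little RNA. PL35560 was counted in 18 of the 22 libraries, with 1.02 CPM in egg, 1.55 in early blastula and 0.135 in pluteus, and no more than 0.208 CPM in any adult tissue. Its first and last stages overlapped (log2 change -1.02, SE 1.24, adjusted p = 4.90e-01 by edgeR), although all 5 lists held a start peak, with the gastrula summit 196 bases from the start. PL41270 had no count in egg or from the 2-cell to the 8-cell stage, 1.16 CPM at swimming blastula, 1.82 at late gastrula, 0.337 at pluteus and 1.49 in ovaries. Its fitted log2 change was 6.14 (SE 1.78, adjusted p = 6.02e-03 by edgeR), which is no bound because the first 4 libraries were at 0, and which was 7.24 without the 16-cell library. The pooled last 4 libraries of PL41270, at 0.7365 CPM, were at least 2.58-fold above the floor of the first 4. Its start also had a peak in all 5 lists. PL11363 was counted in 4 libraries, at 0.512 CPM in the 4-cell stage, 0.527 in prism, 0.11 in ovaries and 0.104 in Aristotle's lantern. Its trend passed the test (adjusted p = 1.19e-02 by edgeR) although only 2 developmental libraries, the 4-cell stage and prism, held any count of it.

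In adult tissues 146 members (of 300) reached 1 CPM in at least 1 tissue, 116 of them in tubefeet and 105 in bodywall, against 66 in ovaries, 75 in gut and 71 in Aristotle's lantern. The share in at least 1 tissue was 48.7%, against 63.9% of the other eligible models. Members were lower in each tissue, with 38.7% against 51.4% in tubefeet, 35.0% against 52.5% in bodywall, 22.0% against 43.8% in ovaries, 25.0% against 43.1% in gut and 23.7% against 34.3% in Aristotle's lantern. The next 300 models by gap had 35.0% in tubefeet, 35.3% in bodywall, 24.7% in ovaries, 22.3% in gut and 17.7% in Aristotle's lantern. Few models without a count in development reached 1 CPM in an adult tissue, with 1 member (0.333%) against 0.635% of the other eligible models. Restriction to a tissue meant at least 5 TMM-scaled CPM and 8 times the next tissue, with 0.5 CPM added to both. It was met by 9 members (3.00%), against 3.49% of all models: 5 in tubefeet, 2 in ovaries, 1 in gut and 1 in Aristotle's lantern, and none in bodywall. Tubefeet also came first among all 1185 restricted models, with 492, and bodywall last, with 35. Between them stood ovaries with 296, Aristotle's lantern with 269 and gut with 93. The lead of tubefeet and the lack of bodywall were thus not particular to members. With 2 CPM added in place of 0.5 the number of restricted members was 3, and without Aristotle's lantern 25, so it depends on both choices.

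Of these 9, PL26372 had the highest level. It lies on the plus strand of Scaffold_649 from 24825794 to 24887216, with 8 exons and gaps of 71.07 and 161.5 kb. Ovaries held 2395 CPM, which was 76.4% of all member counts in that library, against 98.6 in bodywall, 2.07 in gut, 0.938 in Aristotle's lantern and 0.0584 in tubefeet. In development it stood at 16.7 CPM in egg, between 37.2 and 92.4 from the 2-cell stage to swimming blastula, 311 at early mesenchyme blastula, 816 at late gastrula, 865 at prism and 883 at pluteus. Egg was thus the lowest developmental library and far below ovaries. The developmental levels are CPM of library totals. TMM factors were 1.319 at late gastrula, 0.4827 at prism and 1.28 at pluteus, so with TMM scaling prism would stand well above both. Its start had a peak in all 5 lists.

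PL05378, on the plus strand of Scaffold_2100 from 31637380 to 31648273 with 3 exons, was the second. It had 209 CPM in Aristotle's lantern, 62.7 in bodywall, 14.8 in gut, 14.5 in tubefeet and 0.771 in ovaries. These values put Aristotle's lantern above bodywall by less than the 8-fold limit, and the limit was met through TMM scaling alone, whose factors were 0.364 for Aristotle's lantern and 1.03 for bodywall. In development its highest level was 2.4 CPM, in early mesenchyme blastula. Its gaps of 117.8 and 89.68 kb held 20 gastrula summits and no pluteus summit.

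The profiles of members and their neighbours over the 17 stages had little in common, as in other pairs across long gaps. The median Pearson r of log2 CPM between a member and an adjacent model, both tested, was 0.10 over 199 pairs. Pairs across other gaps as long had 0.11 (709 pairs), pairs 1 to 5 kb apart 0.26 and pairs overlapping or within 1 kb 0.57. Pairs 5 to 20 kb apart had 0.15 and pairs from 20 kb up to the gap size of members 0.13, so low values were not particular to the longest gaps. All pairs share the same 17 libraries, so these values are a description. The closest pairs could also share reads where models overlap, which cannot occur between a member and an annotated neighbour.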

How the data were processed

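Counts per gene model for 22 RNA libraries were made by the authors with STAR 2.5.2b and featureCounts 1.6.1, per the submitters' processing notes; the file header gives strand option 1, and whether that is the transcript's strand is not settled here. For the genome build no name is given in the sources used here; positions are those of the deposited files, counted from 1. Every count was even in 21 of the 22 libraries, but not in bodywall, so Poisson intervals and the floor of 3 counts used counts divided by 2 there. The main filter and edgeR fit used the counts as deposited, without this division. ATAC peaks were called by the authors, who used Bowtie2 2.4.1 and Genrich per the submitters' processing notes; the deposited score per peak served only to rank peaks. The score and the pooled lists are the authors' own. The exonic length per model, another deposited value made by the authors, scaled levels to CPM per kb.

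Scaffold_174, with 2845 models and 20 members, had no peak, while a sequence named 1 had peaks and no model. Both end at 80.43 Mb, and 11.9% of gastrula summits on 1 lay within 1 kb of Scaffold_174 starts, against 6.12% to 6.87% after shifting them. Peaks on 1 were therefore read as Scaffold_174.

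With edgeR 4.0.16 under R 4.3.3, the counts of 17 developmental libraries were fitted with TMM and filterByExpr, as a natural spline on stage order (4 degrees of freedom, 12 left for residuals), and the fit was tested on simulated data first. Adjustment was by Benjamini-Hochberg over all models tested. DESeq2 1.42.0 was an alternative. Where libraries were left out, the first and last 4 stages stayed those of the full series. A left-out stage among them was read from the curve without its library. Nothing says that libraries came from separate cultures, and with 1 library a stage p-values measure scatter around the curve. Peaks were compared with bedtools 2.31.1. Binomial intervals are exact (Clopper-Pearson) at 95%; intervals and floors cover counting error only.

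Named models were the 2 rising and 2 falling members whose fitted change was largest, given an adjusted p under 0.05, a developmental library at 5 CPM or more and first and last 4 libraries that do not overlap, the 3 with the largest smaller gap, the 2 with the most gastrula summits and the 2 tissue-restricted ones with the highest CPM. The members, this rule and the tests were chosen with earlier results of these data known. The fit without libraries low in Scaffold_2421, the 280 members off Scaffold_174 and the analyses by start peak were chosen after seeing the data.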

Additional observations from a re-analysis of the deposited data

How the results depend on the processing

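Among results that answer a comparison, 114 of the values under an alternative stayed within the limits set for a change and 16 moved. These limits were wide. With single libraries left out, members falling numbered 12 to 26, against 19 in the main fit, and 16 of these 17 values counted as staying. Among the other results, such as single members, 282 stayed, 13 moved, 2 lost their call and 1 reversed. The call lost was that of PL05378, with a log2 change of 6.49 without egg and 2.52 without pluteus, and the reversed value that of PL24291. With at least 5 CPM in 3 libraries, which leaves 63 members tested, 51 had a trend, 34 rose and 12 fell, shares of 81.0%, 54.0% and 19.0% against 79.2%, 35.2% and 25.2% of all models. Leaving out single libraries gave 93 to 106 members with a trend, 60 to 75 rising, 12 to 26 falling and 24 to 30 rising with a 16-cell start peak. These are counts of members, given without the share of other models in the same fits. The fewest falling came without pluteus and the most without swimming blastula. Tissue-restricted members numbered 3 with a prior of 2 CPM and 8 to 25 with a tissue left out. Over members passing filterByExpr the median per-kb level was 0.0871 in egg and 0.957 in pluteus. Equal list lengths gave 29.3 gastrula summits per Mb. The share of members with a gastrula start peak was 59.0% at 2 kb, 36.0% at 500 bases, 18.3% with equal list lengths and 52.0% for 150 members, and with a 16-cell start peak 12.7% at 500 bases, against 57.4%, 34.3%, 20.2%, 44.8% and 6.45% of all models. The 280 members off Scaffold_174 gave 156 gastrula summits per Mb, 43.9% with a gastrula and 16.8% with a 16-cell start peak. The log2 change of PL24291 ran from -0.76 without prism to 0.74 without pluteus; the cause was not tested. No paired analysis was possible because each stage or tissue had 1 RNA library and each peak list was pooled. Low counts limit what can be said of the 131 members that were not tested.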
